A study of Mus musculus with 6 samples.

Results

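The axonemal genes of motile cilia were followed in whole lung RNA from GRdim/dim and GR+/+ mice. Members were taken by gene symbol alone. They were the protein-coding genes whose symbol begins with Cfap, Dnah, Dnai, Dnaaf, Drc, Rsph or Tekt followed by a digit, together with *Foxj1*, *Rfx2*, *Rfx3*, *Mcidas*, *Ccdc39* and *Ccdc40*. The rule found 72 of the 54532 genes in the count table, and no measured value entered it. No row carried a Dnai symbol, because the dynein intermediate chains stand in the table under the older symbols *Dnaic1* and *Dnaic2*. Of the 72 members, 69 passed the filter on low counts and were tested among 16568 genes.

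GRdim/dim mice carry a point mutation of the glucocorticoid receptor (GR) gene, *Nr3c1*, in every cell, which impairs dimerization of the receptor. GR+/+ mice were their littermates with the intact receptor, and both genotypes had the mixed background 129/SvEv x C57BL/6. All 6 mice, 3 of each genotype and 10 to 16 weeks old, were kept in hemorrhagic shock (HS) for 1 h and then resuscitated for 4 h in a mouse intensive care unit, so that no library came from a mouse without HS. Poly(A) RNA of each lung gave 1 library, and the comparison asks which transcripts depend on an intact GR after HS. A point mutation leaves the level of its own transcript as no check of the labels.

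Motile cilia beat on the multiciliated cells that line the conducting airways and clear mucus toward the throat. Their core, the axoneme, is a ring of doublet microtubules around a central pair. Outer and inner dynein arms pull neighbouring doublets past each other, the nexin-dynein regulatory complex links the doublets, and radial spokes carry signals from the central pair to the arms. Tektins and many CFAP (cilia and flagella associated) proteins line or decorate the doublets. Dynein arms are built beforehand in the cytoplasm by assembly factors. The transcription factors FOXJ1, RFX2 and RFX3 switch the whole program on in cells that the co-activator multicilin, encoded by *Mcidas*, has committed to many cilia. In bulk lung RNA, fewer ciliated cells and less ciliary RNA per cell cannot be told apart.

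The libraries held 15687734 to 32082940 counts, of which 20342 to 83313 fell on members. Levels are normalised read counts, scaled to the library size with TMM factors (CPM), and are given in the order of replicates 1, 2 and 3. Levels of different members are compared only as CPM per kilobase of exon. The leading gene of each marker list below is the one with the highest mean CPM, without regard to length. The deepest library, GR+/+ replicate 3, also stood apart in the members, as described below, and the log2 fold changes of members that rest on it are also given without it. Ciliated cells were represented in every lung. All 15 ciliated cell markers outside the symbol rule were tested, and their summed level lay between 1613 and 2533 CPM in GR+/+ and between 1296 and 1679 CPM in GRdim/dim libraries. Nothing in the sources says that the replicates were other than separate mice, so the p-values measure the spread between mice.

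The members' promoters were searched for motifs of the factors that act on cilia genes and of GR. RFX proteins bind the X-box, an inverted repeat with the arm GTTGCC. In RefSeq promoters (build GRCm38.p6, 250 bases before to 50 after the start), 59 of the 72 members had an entry, with 66 promoters in all. GTTGCC, read on both strands, was found in 26 of the 66 (39.4%), against 12.9% of the 15295 promoters of genes tested and 12.5% of all 32851 promoters. Promoters of 1 gene can overlap and hold the same arm, so the 38 occurrences in members were 34 distinct sites, of which 19 (55.9%) began within 100 bases upstream of a start, against 39.1% of the distinct sites over all promoters. The full X-box was searched as both arms in inverted order around a spacer of fixed length, and overlaps the single arm where its variable bases allow. In this form it was in 1 member promoter, that of *Cfap298* (1.52%, against 0.451% of all). Inverted arms with another spacer length or other arm variants were not counted, so the search does not show that other member promoters lack an X-box. A further inverted pair in the *Cfap298* promoter, beginning 69 bases upstream of the start with a longer spacer, was counted only as single arms. A forkhead motif, TGTTTAC on either strand, was in 4 (6.06%, against 3.65% of all), those of *Cfap20*, *Cfap43*, *Dnah17* and *Tekt3*. The palindromic glucocorticoid response element was in 1, again *Cfap298* (1.52%, against 0.475% of all). These matches are letters in a window and were not tested as binding sites.

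Promoters are printed here for *Cfap46* and *Cfap100*, the members with the smallest p-values, for the inner arm heavy chain *Dnah10* with 2 arms at its start, for *Cfap298* with the full X-box, and for the outer arm heavy chain *Dnah5*, which holds none of the motifs. Each runs 5′ to 3′ on the gene's strand, and capitals mark GTTGCC, its reverse complement GGCAAC, or the whole X-box. They lie at chr7:139683766-139684065 (minus strand), chr6:90428431-90428730 (minus), chr5:124724835-124725134 (plus), chr16:90934800-90935099 (minus) and chr15:28203516-28203815 (plus).
Cfap46: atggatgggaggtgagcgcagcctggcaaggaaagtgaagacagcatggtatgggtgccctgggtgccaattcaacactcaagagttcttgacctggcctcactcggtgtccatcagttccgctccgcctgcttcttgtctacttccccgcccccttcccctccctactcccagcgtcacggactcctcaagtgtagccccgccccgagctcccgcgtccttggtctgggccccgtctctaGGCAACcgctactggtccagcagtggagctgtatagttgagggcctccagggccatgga
Cfap100: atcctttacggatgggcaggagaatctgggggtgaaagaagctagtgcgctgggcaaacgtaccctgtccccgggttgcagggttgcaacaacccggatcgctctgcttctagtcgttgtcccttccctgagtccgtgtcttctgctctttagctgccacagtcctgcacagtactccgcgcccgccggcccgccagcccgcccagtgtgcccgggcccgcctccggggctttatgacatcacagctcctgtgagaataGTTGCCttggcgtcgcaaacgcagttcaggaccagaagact
Dnah10: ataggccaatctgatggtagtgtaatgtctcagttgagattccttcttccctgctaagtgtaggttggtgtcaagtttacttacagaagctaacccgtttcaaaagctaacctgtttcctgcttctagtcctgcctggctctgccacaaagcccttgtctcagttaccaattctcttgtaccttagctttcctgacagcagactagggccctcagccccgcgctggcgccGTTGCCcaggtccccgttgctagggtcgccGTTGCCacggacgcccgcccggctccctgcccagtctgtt
Cfap298: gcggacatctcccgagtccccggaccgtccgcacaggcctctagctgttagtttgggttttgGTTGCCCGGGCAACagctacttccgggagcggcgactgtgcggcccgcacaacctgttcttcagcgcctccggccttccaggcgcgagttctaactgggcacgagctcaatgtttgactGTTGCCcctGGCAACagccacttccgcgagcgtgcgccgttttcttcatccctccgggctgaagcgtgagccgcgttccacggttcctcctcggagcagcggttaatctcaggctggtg
Dnah5: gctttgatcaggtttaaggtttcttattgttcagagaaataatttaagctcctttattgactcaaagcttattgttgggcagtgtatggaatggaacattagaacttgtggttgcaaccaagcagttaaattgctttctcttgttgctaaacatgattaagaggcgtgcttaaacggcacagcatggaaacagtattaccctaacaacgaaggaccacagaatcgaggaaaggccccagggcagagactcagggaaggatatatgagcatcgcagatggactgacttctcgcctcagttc

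Between the genotypes, no axonemal gene was called differentially expressed. By edgeR's quasi-likelihood test with an adjusted *p* under 0.05 and a log2 fold change beyond 0.5, 0 of the 69 members were called, where 0.169% of all 16568 genes were. DESeq2 also called 0 members, where it called 1.7% of the genes it gave an adjusted *p*. The smallest adjusted *p* of a member in edgeR was 0.443, that of *Cfap46*. The levels nevertheless leaned one way, in that 60 of 69 members had a negative log2 fold change (GRdim/dim over GR+/+) and 9 a positive one, where 49.1% of all genes were negative. The median log2 fold change was -0.36 over the members and 0.01 over all genes tested, and single members ranged from -1.12 (*Dnah3*) to 0.61 (*Mcidas*). At an unadjusted *p* under 0.05, 7 members (10.1%) were lower in GRdim/dim mice, where 4.68% of all genes were, and 0 were higher, where 4.91% of all genes were. The 7 were *Cfap46*, *Cfap100*, *Rsph4a*, *Foxj1*, *Dnah2*, *Cfap44* and *Cfap97d2*. DESeq2 gave 11 lower members at that threshold, where 3.02% of the 31346 genes with a p-value were lower. Without a filter on low counts, edgeR called 2 members, *Cfap46* and *Foxj1* (adjusted *p* = 0.0196 and 0.0315), where it called 1.66% of 31368 genes. In that fit 20 members were lower at an unadjusted *p* under 0.05, where 4.97% of all genes were, and with the replicate number as a block 9 were, where 5.23% of all genes were.

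This lean rested largely on 1 library. GR+/+ replicate 3 was the highest of the 6 libraries in 61 of the 69 members (88.4%), where it was the highest in 17.6% of all genes tested. The exceptions were *Cfap20*, *Cfap97*, *Dnah8*, *Dnah14*, *Dnah17*, *Tekt2*, *Tekt5* and *Mcidas*. The summed level of the members was 1377, 1558 and 2646 CPM in GR+/+ and 1198, 1646 and 1314 CPM in GRdim/dim libraries. The sum in GR+/+ replicate 3 lay above the other 5, whereas the sums of the other GR+/+ libraries lay within the range of the GRdim/dim libraries. The median member stood 0.67 above its mean over the 6 libraries on the log2 scale in GR+/+ replicate 3 and at -0.39 and -0.21 in GRdim/dim replicates 1 and 3. It stood at -0.18 and -0.01 in GR+/+ replicates 1 and 2 and at 0.11 in GRdim/dim replicate 2. GRdim/dim replicate 1 was the lowest library in 35 of the 69 members, where it was the lowest in 18.6% of all genes tested. GRdim/dim replicate 3 was the lowest in 19 of the 69, where it was the lowest in 23.3% of all genes tested.

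**Figure D1:**
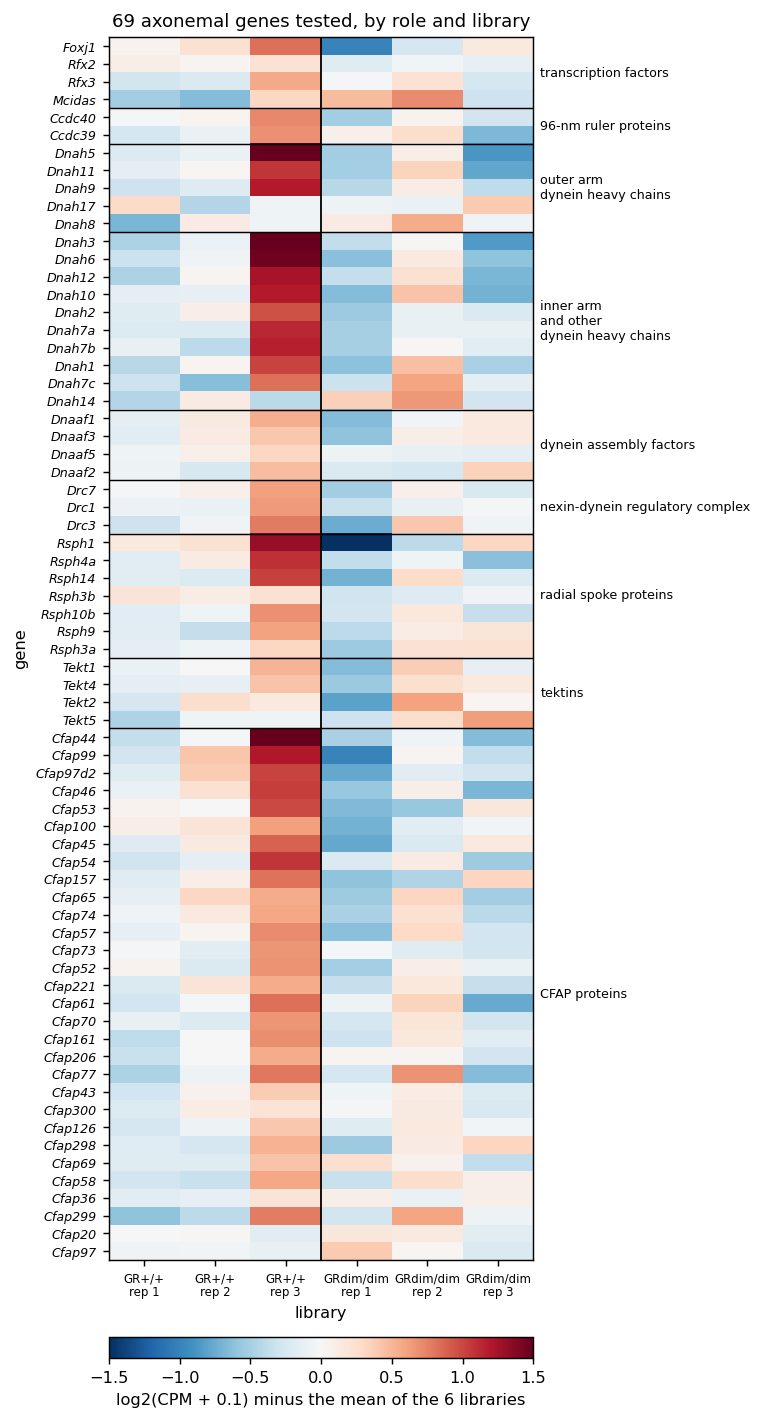
Level of each of the 69 axonemal genes tested (rows, grouped by role and ordered within a role by fold change) in the 6 libraries (columns), as log2(CPM + 0.1) minus the gene's mean over the libraries, with red for higher and blue for lower levels. The column of GR+/+ replicate 3 is red in nearly all rows and is the highest library in 61 of them.

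Without GR+/+ replicate 3, the median log2 fold change of the members was -0.02 (0.02 over all genes tested), 35 of the 69 were negative, and 0 were lower and 0 higher at an unadjusted *p* under 0.05. Across all genes, 4.57% were lower at that threshold in the same fit. Without GRdim/dim replicate 1, 0 members were lower as well (4.61% of all genes). Leaving out GR+/+ replicate 1 gave 19 lower members of 69 (3.31% of all genes), leaving out GR+/+ replicate 2 gave 12 (3.61%), leaving out GRdim/dim replicate 2 gave 14 (4.61%) and leaving out GRdim/dim replicate 3 gave 6 (5.98%). Counted without any fit, the 3 GRdim/dim libraries lay below the 3 GR+/+ libraries in 4 members (5.80%), *Cfap100*, *Rsph3b*, *Dnaaf5* and *Rfx2*, where this held for 7.05% of all genes. They lay above them in 0 members, where this held for 7.77% of all genes. Members also varied more between mice than other genes did. The median SD within a genotype was 0.42 on the log2 scale for members and 0.30 for all genes, and the median 95% confidence interval of a member's fold change reached 0.69 to either side.

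Of the 4 transcription factors, 3 had a negative and 1 a positive fold change, with a median of -0.17. *Foxj1* (chr11:116330704-116335399), the main switch of the motile cilia program, was the most abundant member per length at 43.4 CPM per kilobase. It measured 109.8, 124 and 188 CPM in GR+/+ and 52.8, 89.4 and 118 CPM in GRdim/dim libraries. GRdim/dim replicate 3 lay between GR+/+ replicates 1 and 2, so the groups overlapped, and the means were 141 ± 41.7 CPM in GR+/+ and 86.6 ± 32.5 CPM in GRdim/dim mice (SD, n = 3; log2 fold change -0.70, SE 0.29, adjusted *p* = 0.483). *Rfx2*, an X-box factor, was at 25.2, 24.5 and 27.6 CPM in GR+/+ and 20.9, 23.1 and 21.8 CPM in GRdim/dim libraries. Here every GRdim/dim library lay below every GR+/+ library, but by a small step (log2 fold change -0.23, SE 0.18, adjusted *p* = 0.757, exact permutation p = 0.1, the smallest that 3 mice against 3 can give). Its relative *Rfx3* was at 14.6, 15.2 and 26.3 CPM against 17.3, 20.5 and 14.7 CPM, with overlapping groups (log2 fold change -0.10, SE 0.27, adjusted *p* = 0.951). *Mcidas*, which acts at the start of multiciliation, was close to the detection limit at 0.598, 0.54 and 1.14 CPM in GR+/+ and 1.29, 1.54 and 0.71 CPM in GRdim/dim libraries. It had the highest fold change of all members, 0.61 (SE 0.50, 95% confidence interval -0.50 to 1.71), with an interval that spans zero. The intervals of all 4 overlapped (-1.35 to -0.05 for *Foxj1*, -0.63 to 0.16 for *Rfx2* and -0.70 to 0.50 for *Rfx3*), and no difference between them was tested. The log2 fold changes without GR+/+ replicate 3 were -0.44 for *Foxj1*, -0.18 for *Rfx2*, 0.23 for *Rfx3* and 1.06 for *Mcidas*.

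The ruler proteins CCDC39 and CCDC40 set the spacing at which arms and spokes dock along the doublet. *Ccdc40* was at 35.5, 36.9 and 59.1 CPM in GR+/+ and 24.9, 37.1 and 29.6 CPM in GRdim/dim libraries. *Ccdc39* was at 24.2, 27.1 and 46.8 CPM in GR+/+ and 30.6, 34.9 and 18.1 CPM in GRdim/dim libraries. In both genes GR+/+ replicates 1 and 2 lay among the GRdim/dim libraries and GR+/+ replicate 3 above them. The log2 fold change was -0.52 (SE 0.24, adjusted *p* = 0.54) for *Ccdc40* and -0.23 (SE 0.30, adjusted *p* = 0.883) for *Ccdc39*, and without GR+/+ replicate 3 it was -0.24 and 0.12. *Ccdc39* shares 16.9% of its exon bases with the antisense gene Ttc14, whose reads cannot be separated from its own where strand was not used in counting.

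The outer arm heavy chains are the strongest motors of the axoneme. Their summed level was 92.6, 98.3 and 245 CPM in GR+/+ and 81.5, 120 and 76.8 CPM in GRdim/dim libraries. *Dnah5* (chr15:28203752-28472052), a heavy chain often mutated in primary ciliary dyskinesia, was at 30.5, 32.6 and 106 CPM in GR+/+ and 24.4, 37.6 and 19.1 CPM in GRdim/dim libraries. Its level in GR+/+ replicate 3 was 3.36 times the mean of the other GR+/+ libraries, which themselves lay within the GRdim/dim range (log2 fold change -1.06, SE 0.48, adjusted *p* = 0.536). Without that library the log2 fold change was -0.22. *Dnah9*, its partner in the distal part of the cilium, was at 28.7, 31 and 81.5 CPM against 26.5, 38.4 and 27.3 CPM (log2 fold change -0.62, SE 0.37, adjusted *p* = 0.667), and its fold change without GR+/+ replicate 3 was 0.04. *Dnah11*, the partner in the proximal part, was at 17.6, 19.8 and 41 CPM against 13.6, 24.6 and 11.2 CPM (log2 fold change -0.67, SE 0.37, adjusted *p* = 0.628), and its fold change became -0.18 without that library. *Dnah8* and *Dnah17*, whose proteins are known from the sperm tail, did not show the excess of GR+/+ replicate 3. *Dnah8* was at 4.72, 8.33 and 7.31 CPM against 8.36, 11.3 and 7.36 CPM (log2 fold change 0.41, SE 0.30, adjusted *p* = 0.738, and 0.21 to 0.58 with 1 library left out). *Dnah17* was at 11.1, 6.65 and 8.67 CPM against 8.63, 8.47 and 11.9 CPM (log2 fold change 0.13, SE 0.28, adjusted *p* = 0.938).

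Of the 10 inner arm and other dynein heavy chains, 9 had a negative fold change and 9 were highest in GR+/+ replicate 3, which exceeded the mean of the other GR+/+ libraries by a median of 2.53 times. *Dnah6*, an inner arm chain and the most abundant heavy chain per length at 5.4 CPM per kilobase, was at 49.5, 59.8 and 171 CPM in GR+/+ and 40.0, 68.3 and 40.7 CPM in GRdim/dim libraries. The GRdim/dim libraries enclosed GR+/+ replicates 1 and 2 (log2 fold change -0.91, SE 0.45, adjusted *p* = 0.582), and without GR+/+ replicate 3 the fold change was -0.14. *Dnah3* was at 19.2, 24.9 and 90.8 CPM in GR+/+ and 20.6, 26.9 and 14.7 CPM in GRdim/dim libraries, the highest ratio of GR+/+ replicate 3 to the other GR+/+ libraries among the members at 4.12 times. It also had the lowest fold change of all members (log2 fold change -1.12, SE 0.55, adjusted *p* = 0.58), which became -0.09 without that library, and 10.5% of its exon bases are antisense to Lyrm1. *Dnah10*, one of the paired chains of the double-headed inner arm, was at 33.6, 34 and 84 CPM against 23.5, 49.6 and 22.5 CPM (log2 fold change -0.67, SE 0.41, adjusted *p* = 0.681), and its promoter printed above carries a GTTGCC arm on either side of the start. *Dnah2* (chr11:69420809-69549110), the other chain of that arm, was at 21.7, 26.4 and 47.8 CPM against 16.8, 22.8 and 21.2 CPM, and had the smallest p of the heavy chains (log2 fold change -0.66, SE 0.29, adjusted *p* = 0.505, DESeq2 adjusted *p* = 0.377). It overlaps the antisense gene *Dnah2os* over 312 exon bases (2.08%). *Dnah12* was at 16.3, 23.2 and 53.5 CPM against 17.6, 26.5 and 13.9 CPM (log2 fold change -0.68, SE 0.41, adjusted *p* = 0.667). Fold changes of *Dnah10*, *Dnah2* and *Dnah12* without GR+/+ replicate 3 were -0.08, -0.24 and -0.02. *Dnah14*, a chain without a settled place in the axoneme, was the exception, at 1.79, 2.7 and 1.84 CPM against 3.18, 3.95 and 2.0 CPM (log2 fold change 0.54, SE 0.38, adjusted *p* = 0.724). Its fold change ran from 0.31 to 0.76 with 1 library left out.

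The 3 Dnah7 genes lie as near copies on chromosome 1, and 63.7% of the 31-base windows of *Dnah7c*, 63.5% of *Dnah7b* and 56.5% of *Dnah7a* occur in other genes. The split of reads between them is therefore uncertain. *Dnah7a* was at 5.02, 5.04 and 12.9 CPM against 4.1, 5.36 and 5.36 CPM. *Dnah7b* was at 5.86, 4.8 and 14.4 CPM against 4.47, 6.44 and 5.62 CPM. *Dnah7c* was at 4.06, 3.24 and 9.12 CPM against 4.04, 7.68 and 4.59 CPM. All 3 were highest in GR+/+ replicate 3. The log2 fold changes were -0.64 (SE 0.39), -0.61 (SE 0.41) and -0.02 (SE 0.42), and without GR+/+ replicate 3 they were -0.03, 0.05 and 0.58.

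Of the dynein assembly factors, which fold and pre-assemble arms in the cytoplasm, all 4 had a negative fold change, with a median of -0.23. *Dnaaf5* was at 35, 38.6 and 45.2 CPM in GR+/+ and 34.7, 33.8 and 32.9 CPM in GRdim/dim libraries. The groups did not overlap, and the GRdim/dim libraries lay close together just under the lowest GR+/+ library (log2 fold change -0.23, SE 0.17, adjusted *p* = 0.754, exact permutation p = 0.1), and 10.6% of its exon bases are antisense to Gm15672. *Dnaaf3* was at 20.3, 24.6 and 30.1 CPM against 14.8, 24 and 25.1 CPM (log2 fold change -0.23, SE 0.25, adjusted *p* = 0.841). It shares 86 exon bases on the same strand with *Tnni3*, a heart muscle gene whose counts were 561 to 1308 per library. *Dnaaf1* was at 5.32, 6.48 and 8.61 CPM against 3.72, 5.73 and 6.52 CPM, with overlapping groups (log2 fold change -0.36, SE 0.32, adjusted *p* = 0.794), and 20.7% of its exon bases are antisense to Taf1c. *Dnaaf2*, the least abundant of the 4 per length, was at 2.09, 1.86 and 3.08 CPM against 1.89, 1.83 and 2.84 CPM (log2 fold change -0.12, SE 0.38, adjusted *p* = 0.962). Of its exon bases, 32.7% are antisense to 9330151L19Rik, which had 90 to 168 counts per library, and 39.3% of its 31-base windows occur in other genes. With GR+/+ replicate 3 left out, the fold changes were -0.12 for *Dnaaf5*, -0.08 for *Dnaaf3*, -0.15 for *Dnaaf1* and 0.14 for *Dnaaf2*.

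The nexin-dynein regulatory complex holds neighbouring doublets together and limits their sliding. Its members *Drc1*, *Drc3* and *Drc7* all had a negative fold change and were all highest in GR+/+ replicate 3. *Drc7* was at 25.9, 27.7 and 40.2 CPM in GR+/+ and 18.3, 27.6 and 22.4 CPM in GRdim/dim libraries (log2 fold change -0.46, SE 0.24, adjusted *p* = 0.586). *Drc1*, which anchors the complex to the doublet, was at 24.6, 24.3 and 40.8 CPM against 20.8, 24.2 and 25.8 CPM, and GR+/+ replicates 1 and 2 lay inside the GRdim/dim range (log2 fold change -0.35, SE 0.24, adjusted *p* = 0.718). *Drc3* was at 20.9, 25 and 44.7 CPM against 15.5, 34.6 and 24.8 CPM (log2 fold change -0.28, SE 0.34, adjusted *p* = 0.868). Without GR+/+ replicate 3 the fold changes were -0.24 for *Drc7*, -0.05 for *Drc1* and 0.12 for *Drc3*.

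Radial spoke genes gave 7 negative fold changes among the 7 tested. *Rsph1*, a spoke head protein and the second member by level per length at 22 CPM per kilobase, was at 24, 25.4 and 54 CPM in GR+/+ and 7.06, 16.5 and 27 CPM in GRdim/dim libraries. GRdim/dim replicate 1 was far below and GR+/+ replicate 3 far above the other 4 libraries, which lay between 16.5 and 27 CPM (log2 fold change -1.04, SE 0.46, adjusted *p* = 0.521). *Rsph4a* (chr10:33905111-33916021), also of the spoke head, was at 17.4, 21.3 and 42 CPM in GR+/+ and 15.1, 18.7 and 12.6 CPM in GRdim/dim libraries. GRdim/dim replicate 2 exceeded GR+/+ replicate 1 (log2 fold change -0.80, SE 0.32, adjusted *p* = 0.467; DESeq2 adjusted *p* = 0.269). *Rsph9*, the third head protein, was at 14.6, 12.8 and 25 CPM against 12.5, 17.7 and 18.6 CPM (log2 fold change -0.11, SE 0.29, adjusted *p* = 0.951). The 95% confidence intervals of the head genes overlapped (-2.08 to 0.00 for *Rsph1*, -1.51 to -0.09 for *Rsph4a* and -0.75 to 0.53 for *Rsph9*). Their fold changes without GR+/+ replicate 3 were -0.55, -0.32 and 0.25 in that order. The stalk genes *Rsph3a* and *Rsph3b* share 80.7% and 81.5% of their 31-base windows with each other. The split of reads between them is therefore uncertain, and a separation of the groups in *Rsph3b* holds only for the reads assigned to it. *Rsph3b* was at 16.8, 15.9 and 17.2 CPM against 11.9, 12.8 and 14.1 CPM, without overlap between the groups (log2 fold change -0.36, SE 0.20, adjusted *p* = 0.625, exact permutation p = 0.1). It showed no excess of GR+/+ replicate 3 (1.05 times the other GR+/+ libraries). *Rsph3a* was at 7.77, 8.21 and 10.7 CPM against 5.88, 10.1 and 10.1 CPM, with overlap (log2 fold change -0.03, SE 0.29, adjusted *p* = 0.984). Without that library the fold change was -0.34 for *Rsph3b* and 0.12 for *Rsph3a*.

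Tektins form filaments inside the doublets, and their median log2 fold change of -0.06 over the 4 tested was the nearest to zero among the roles. *Tekt1* was at 19.1, 20.3 and 29.2 CPM against 13, 26.3 and 18.7 CPM. *Tekt4* was at 13.4, 13.5 and 19.9 CPM against 9.97, 17.4 and 16.3 CPM. *Tekt2* was at 9.86, 14.1 and 13 CPM against 6.69, 17.8 and 12 CPM. GRdim/dim replicate 1 was the lowest library in these 3 genes, while GRdim/dim replicate 2 stood within or above the GR+/+ range. The log2 fold changes were -0.24 (SE 0.28), -0.11 (SE 0.27) and -0.02 (SE 0.34), and without GR+/+ replicate 3 they were -0.02, 0.11 and 0.03. *Tekt5*, at 1.97, 2.64 and 2.64 CPM against 2.21, 3.32 and 4.33 CPM, had a positive fold change with overlapping groups (log2 fold change 0.44, SE 0.36, adjusted *p* = 0.774). With 1 library left out it ran from 0.20 to 0.66.

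**Figure D2:**
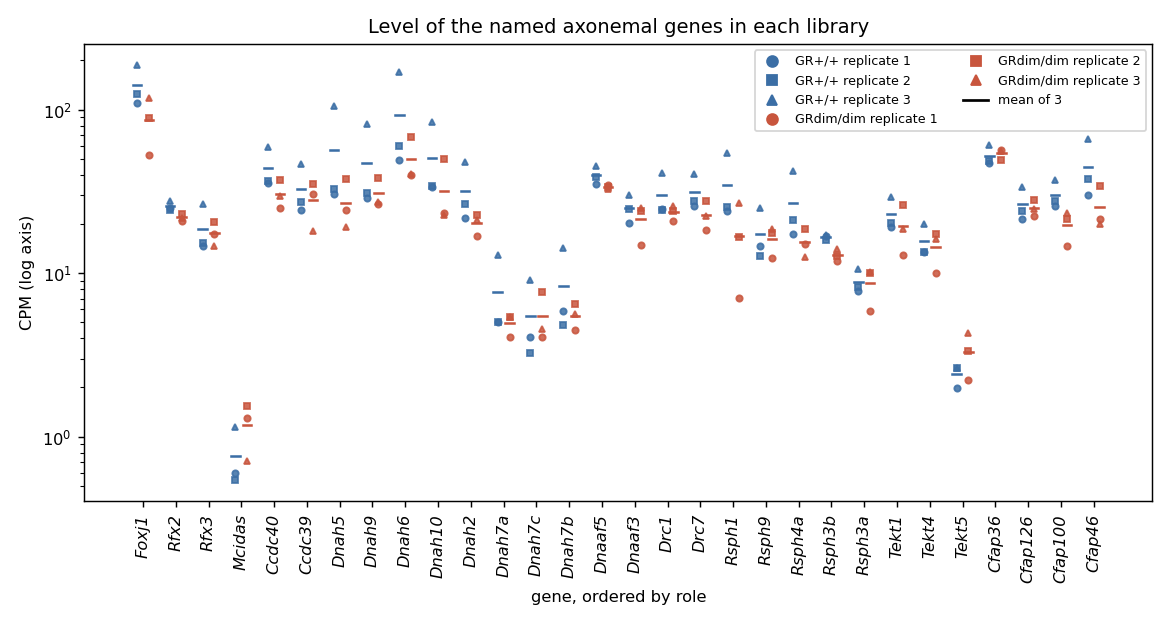
Level in CPM (log axis) of 30 axonemal genes, ordered by role, with 1 point per library, blue for GR+/+ and red for GRdim/dim, and a short line at the mean of 3. The triangle of GR+/+ replicate 3 lies above the other points in most genes, and the groups are separate in *Rfx2*, *Dnaaf5*, *Rsph3b* and *Cfap100*.

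The CFAP genes are the largest and most mixed group, with 31 members, 30 of them tested. Their log2 fold changes ran from -1.05 to 0.16 with a median of -0.37, 26 were negative and 28 were highest in GR+/+ replicate 3. *Cfap46* (chr7:139600951-139683817), a protein of the central pair, had the smallest p of all members. It was at 30.0, 37.7 and 66.1 CPM in GR+/+ and 21.6, 34.2 and 20.0 CPM in GRdim/dim libraries. GRdim/dim replicate 2 lay between GR+/+ replicates 1 and 2, and the means were 44.6 ± 19 CPM in GR+/+ and 25.3 ± 7.82 CPM in GRdim/dim mice (SD, n = 3; log2 fold change -0.82, SE 0.31, adjusted *p* = 0.443). Its adjusted *p* by edgeR ranged from 0.0196 without a count filter to 0.771 over the alternatives. *Cfap74*, also of the central pair, was at 25.3, 29.1 and 39.5 CPM against 18.8, 30.9 and 19.8 CPM (log2 fold change -0.43, SE 0.25, adjusted *p* = 0.648). *Cfap54*, of the central pair as well, was at 16.6, 18.5 and 43.1 CPM against 17.5, 22.2 and 14.1 CPM (log2 fold change -0.54, SE 0.35, adjusted *p* = 0.699). The fold changes without GR+/+ replicate 3 were -0.42 for *Cfap46*, -0.23 for *Cfap74* and 0.04 for *Cfap54*.

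*Cfap100* (chr6:90403479-90428797), which belongs to a complex that modulates the inner arms, was the member with an unadjusted *p* under 0.05 whose genotypes did not overlap. It was at 25.8, 27.5 and 36.9 CPM in GR+/+ and 14.7, 21.4 and 23.2 CPM in GRdim/dim libraries. The highest GRdim/dim library, replicate 3, lay just under GR+/+ replicate 1, and the means were 30.1 ± 6.03 CPM in GR+/+ and 19.8 ± 4.52 CPM in GRdim/dim mice (SD, n = 3; log2 fold change -0.61, SE 0.24, adjusted *p* = 0.449, exact permutation p = 0.1). GR+/+ replicate 3 was 1.39 times the other GR+/+ libraries, and the fold change without it was -0.43. *Cfap44*, part of the tether of an inner arm, was at 26.7, 34 and 102 CPM in GR+/+ and 24.4, 32.7 and 21.9 CPM in GRdim/dim libraries. This is GR+/+ replicate 3 against 5 libraries between 21.9 and 34 CPM (log2 fold change -1.05, SE 0.45, adjusted *p* = 0.505), and without it the fold change was -0.20. Its tether partner *Cfap43* was at 79.6, 102 and 127 CPM against 93.1, 105 and 84.8 CPM, where the excess of that library was 1.4 times and the log2 fold change -0.12 (SE 0.19), or 0.06 without it. *Cfap97d2*, a low gene, was at 2.15, 3.24 and 5.08 CPM against 1.4, 2.2 and 2.0 CPM (log2 fold change -0.91, SE 0.40, adjusted *p* = 0.505), with a fold change of -0.52 without GR+/+ replicate 3.

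CFAP45, CFAP52 and CFAP53 bind the inner wall of the doublets. *Cfap126*, which is more abundant per length than their genes, was at 21.4, 24 and 33.8 CPM against 22.4, 28.2 and 24.8 CPM (log2 fold change -0.07, SE 0.22, adjusted *p* = 0.958). *Cfap45* was at 17.9, 22.5 and 37.8 CPM against 12, 17.7 and 22.6 CPM (log2 fold change -0.59, SE 0.31, adjusted *p* = 0.602). *Cfap52* was at 14.6, 12.1 and 22.6 CPM against 9.87, 15.1 and 13.1 CPM (log2 fold change -0.38, SE 0.28, adjusted *p* = 0.746). The groups overlapped in *Cfap126*, *Cfap45* and *Cfap52*, and GR+/+ replicate 3 was the highest library in each. *Cfap53* was at 9.8, 9.47 and 18.8 CPM against 5.93, 6.31 and 10.6 CPM, with GRdim/dim replicate 3 above the lower GR+/+ libraries (log2 fold change -0.75, SE 0.35, adjusted *p* = 0.536). *Cfap65*, a gene of the central pair, was at 82.8, 112 and 133 CPM against 62.2, 113 and 62.8 CPM (log2 fold change -0.46, SE 0.26, adjusted *p* = 0.631), and there GRdim/dim replicate 2 lay within the GR+/+ range. In the fit without GR+/+ replicate 3 the fold changes were 0.15 for *Cfap126*, -0.22 for *Cfap45*, -0.08 for *Cfap52*, -0.34 for *Cfap53* and -0.30 for *Cfap65*. At the other end stood CFAP genes with little difference. *Cfap36*, the most abundant CFAP gene per length, was at 47.2, 48.4 and 60.5 CPM in GR+/+ and 56.8, 49.3 and 55.9 CPM in GRdim/dim libraries (log2 fold change 0.05, SE 0.17, adjusted *p* = 0.963). *Cfap20* was at 49.9, 50.5 and 44.8 CPM against 56.2, 55 and 44.9 CPM (log2 fold change 0.10, SE 0.17, adjusted *p* = 0.917). *Cfap97* was at 24.1, 24.1 and 23.1 CPM against 32.7, 25.3 and 21.4 CPM (log2 fold change 0.16, SE 0.20, adjusted *p* = 0.879). Their 95% confidence intervals were -0.33 to 0.43, -0.27 to 0.48 and -0.30 to 0.61, and their fold changes without GR+/+ replicate 3 were 0.18, 0.05 and 0.14.

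Set side by side, the roles were unlike in how far GR+/+ replicate 3 stood out. Its median excess over the other GR+/+ libraries was 2.53 times in inner arm and 2.19 times in outer arm heavy chains, 1.82 times in radial spoke genes, 1.73 times in the ruler proteins, 1.70 times in CFAP genes, 1.69 times in transcription factors, 1.67 times in the regulatory complex, 1.4 times in assembly factors and 1.31 times in tektins. The median log2 fold changes, in the same order, were -0.65, -0.62, -0.36, -0.38, -0.37, -0.17, -0.35, -0.23 and -0.06. Heavy chains were at one end and tektins at the other in both, while the assembly factors, with a smaller excess than the transcription factors, had the lower median fold change. Without GR+/+ replicate 3 the medians were -0.02, 0.04, -0.03, -0.06, 0.02, 0.03, -0.05, -0.10 and 0.07 in that order. In that fit single members ranged from -0.55 (*Rsph1*) to 1.06 (*Mcidas*). No difference between roles was tested.

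**Figure D3:**
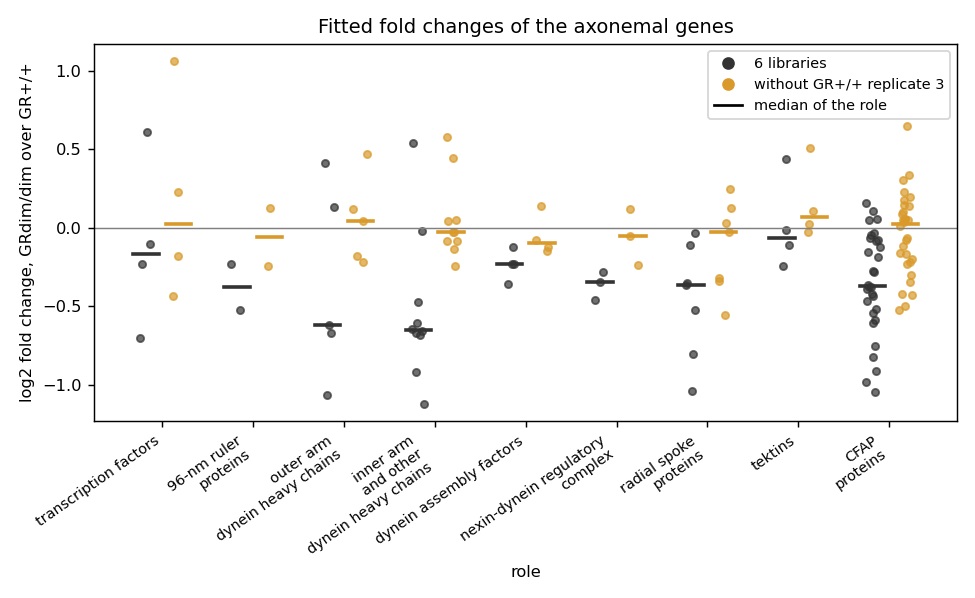
Fitted log2 fold change (GRdim/dim over GR+/+) of each tested axonemal gene by role, from 6 libraries (dark points) and without GR+/+ replicate 3 (yellow points), with the median of each role as a line. The role medians lie between -0.65 and -0.06 with all libraries and between -0.10 and 0.07 without GR+/+ replicate 3.

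Heavy chains are also the longest members, and length ran along with the pattern. The 18 members with over 10 kilobases of exon had a median log2 fold change of -0.61 and stood 1.07 above their mean in GR+/+ replicate 3, against -0.11 and 0.52 for the 17 members of up to 2.5 kilobases. Without GR+/+ replicate 3 the median log2 fold changes of these longest and shortest members were 0.04 and 0.03. The 23 members between 2500 and 5000 bases and the 11 between 5000 and 10000 bases had medians of -0.35 and -0.43. In the fit without that library these were -0.05 and -0.20. Over all genes, GRdim/dim replicate 3 ran from 0.24 in the shortest to -0.28 in the longest genes, whereas GR+/+ replicate 3 stayed at 0.05 and 0.11. With a per-library correction for gene length, the median over the members was -0.38 and 7 members were lower at an unadjusted *p* under 0.05 (5.12% of all genes). The part of RNA quality in these values was not tested.

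**Figure D4:**
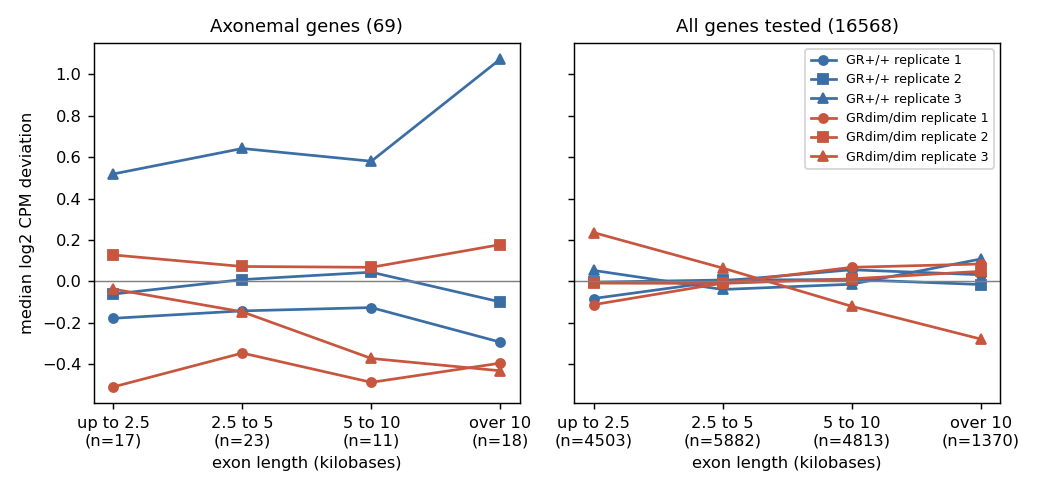
Median log2 CPM deviation from the mean of the 6 libraries by exon length in kilobases, for the 69 axonemal genes (left) and all 16568 genes tested (right), with 1 line per library. GR+/+ replicate 3 is the top line among the axonemal genes at every length and reaches 1.07 over 10 kilobases, while all genes of that library stay near zero.

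Sex was unevenly spread, since 2 of the 3 GR+/+ mice and 1 of the 3 GRdim/dim mice were female. By *Xist* and Y-linked transcripts, GR+/+ replicates 2 and 3 and GRdim/dim replicate 2 were the libraries high in *Xist*. Within these 3 libraries the median member differed by -0.16 on the log2 scale and 52 of 69 were negative. Within the other 3 libraries the difference was -0.12, with 47 negative. A covariate for sex-linked expression gave a median of -0.16, with 0 members lower (3.78% of all genes) and 1 higher (*Dnah8*, with 4.04% of all genes higher) at an unadjusted *p* under 0.05. In each sex 1 genotype had a single mouse, so these within-sex values carry no test.

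Other genes of cilia are given by list. Of 15 ciliated cell markers outside the rule, led by *Sec14l3*, 13 were negative with a median of -0.36, 2 were lower at an unadjusted *p* under 0.05, where 4.68% of all genes were, and 12 were highest in GR+/+ replicate 3. The median marker stood at -0.12, 0.01 and 0.61 in GR+/+ and at -0.63, 0.05 and 0.13 in GRdim/dim libraries, as a log2 deviation from its mean over the 6 libraries. By this median GRdim/dim replicate 3 was the second highest library, whereas by their summed level, at 1370 CPM, it was the second lowest, as it was for the members by both measures. *Sec14l3* itself was at 1138, 1236 and 1781 CPM in GR+/+ and 942, 1061 and 740.0 CPM in GRdim/dim libraries (log2 fold change -0.60, SE 0.24, adjusted *p* = 0.458), lowest in GRdim/dim replicate 3. Its fold change was -0.38 without GR+/+ replicate 3. Of 48 further axonemal genes with other symbols, led by *Tubb4b*, 43 were negative (median -0.32), 3 of 48 were lower at that threshold (4.68% of all genes) and 37 were highest in GR+/+ replicate 3, while *Pih1d3* was at 0 in all libraries. Their summed level was 1504, 1545 and 2151 CPM in GR+/+ and 1394, 1614 and 1680 CPM in GRdim/dim libraries. GRdim/dim replicate 3 was the second highest by this sum and, at -0.10, the second lowest by the median deviation. The dynein intermediate chains *Dnaic1* and *Dnaic2*, added after their values were known, had log2 fold changes of -0.33 and -0.24, and of -0.07 and -0.01 without GR+/+ replicate 3. Intraflagellar transport genes, which build cilia of all kinds, had a median of -0.19 over 28, with 3 of 28 lower (4.68% of all genes) and 15 highest in GR+/+ replicate 3. Their leading gene *Traf3ip1* was at 71.1, 73.1 and 122 CPM against 59.6, 51.7 and 62.2 CPM (log2 fold change -0.62, SE 0.22, adjusted *p* = 0.418), without overlap between the genotypes, and its fold change was -0.32 without GR+/+ replicate 3. The 12 regulators of multiciliation, led by *E2f4*, had a median of 0.00, with 6 negative and 0 at that threshold in either direction, and 4 were highest in GR+/+ replicate 3. Without that library the medians were -0.01 for the ciliated cell markers, -0.09 for the further axonemal genes, -0.05 for the transport genes and 0.03 for the regulators. No gene of these lists was called by edgeR.

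Markers of neighbouring airway cells are given beside the members. Club cell markers, the secretory cells of the small airways, summed to 20282 to 36487 CPM in GR+/+ and 25428 to 32739 CPM in GRdim/dim libraries. Of 10 club cell markers, 6 had a negative log2 fold change, with a median of -0.32 and of -0.18 without GR+/+ replicate 3. In that library 7 of them were highest, and 3 were lower in GRdim/dim mice at an unadjusted *p* under 0.05, where 4.68% of all genes were, while the leading marker *Scgb1a1* had a log2 fold change of 0.23 (SE 0.29). Goblet and airway secretory markers summed to 187 to 289 CPM in GR+/+ and 88.9 to 177 CPM in GRdim/dim libraries, with no overlap. The median log2 fold change was -1.04 over the 8 tested and -0.91 without GR+/+ replicate 3. Of the 8, 4 were lower at that threshold (4.68% of all genes), among them the leading gene *Bpifb1* (log2 fold change -1.28, SE 0.46, adjusted *p* = 0.435), and 2 were highest in GR+/+ replicate 3. Over the 8, the smallest adjusted *p* in edgeR was 0.0714 and the log2 fold changes ran from -3.56 to 0.32. The median goblet and secretory marker stood at 0.94, 0.23 and 0.67 in GR+/+ and at -0.15, -0.44 and -0.82 in GRdim/dim libraries, as a log2 deviation from its mean. *Msmb* was at 0 in all libraries. Basal cell markers, led by *Krt15*, summed to 7.55 to 13.5 CPM in GR+/+ and 3.82 to 10.7 CPM in GRdim/dim libraries, and neuroendocrine markers, led by *Calca*, to 12.2 to 19.2 and 16.5 to 25.8 CPM. The median log2 fold change was -0.15 for basal and 0.39 for neuroendocrine markers, and -0.41 and 0.75 without GR+/+ replicate 3.

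Markers of smooth muscle and of pulmonary vein cardiomyocytes stood low in GR+/+ replicate 3. Smooth muscle markers, led by *Acta2* and not particular to airways, summed to 256 CPM in GR+/+ replicate 3 and to 483 to 652 CPM in the other 5 libraries. Markers of pulmonary vein cardiomyocytes, led by *Myh6*, summed to 177 CPM there and to 452 to 1020 CPM in the others. The median log2 fold change was 0.23 for smooth muscle and 0.32 for cardiomyocyte markers, and 0.05 and -0.10 without GR+/+ replicate 3. Alveolar type 1 markers (led by *Ager*) stood high in it, with 6 of 8 highest there and a sum of 6940 CPM against 4917 to 6074 CPM in the other 5. Median log2 fold changes over the alveolar type 1, alveolar type 2 (*Sftpc*), mesothelial (*Krt19*) and endothelial (*Cdh5*) lists were -0.25, -0.12, -0.07 and -0.19. Without GR+/+ replicate 3 they were -0.06, -0.03, 0.10 and -0.35 in that order. B cell, T cell and neutrophil markers, led by *Ighm*, *Tcf7* and *S100a9*, had medians of 1.07, 0.83 and 0.90, with 5 of 7, 4 of 7 and 2 of 6 genes higher at an unadjusted *p* under 0.05, where 4.91% of all genes were. The part of tissue sampling in the members' values was not tested.

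**Figure D5:**
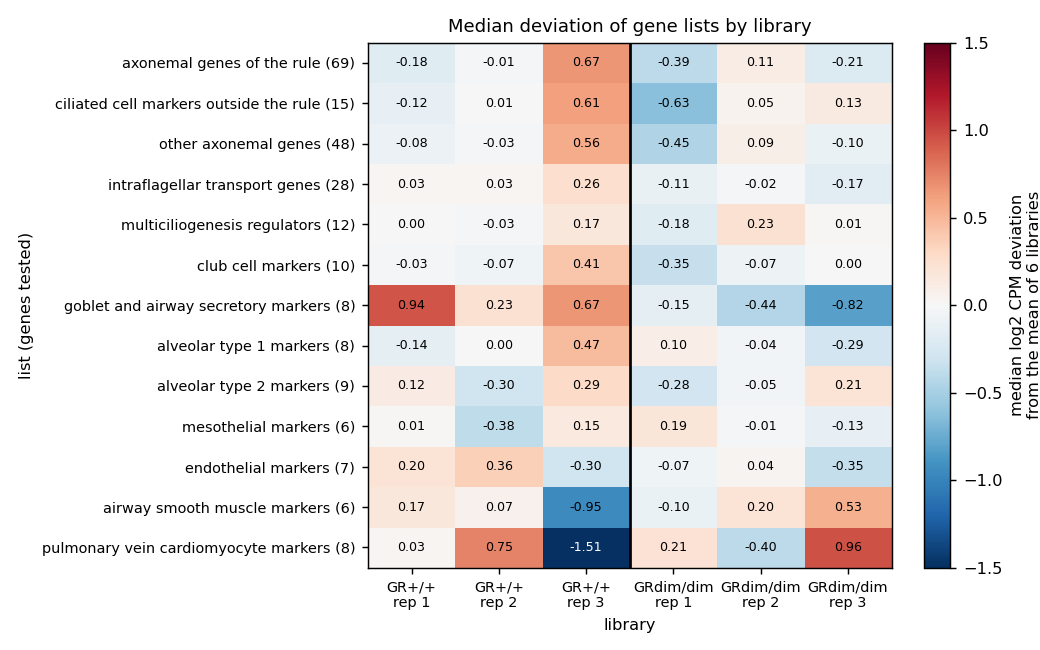
Median log2 CPM deviation from the mean of the 6 libraries for the axonemal genes and 12 marker lists (rows, number of genes tested in brackets) in each library (columns), with red for higher and blue for lower medians. In GR+/+ replicate 3 the axonemal genes stand at 0.67, ciliated cell markers at 0.61, alveolar type 1 markers at 0.47 and club cell markers at 0.41. The smooth muscle markers, labelled airway smooth muscle, stand at -0.95 there and pulmonary vein cardiomyocytes at -1.51.

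Members outside the test were *Tekt3*, with 7 to 16 counts per library, *Cfap97d1*, with 0, 0 and 9 counts in GR+/+ and 6, 1 and 1 counts in GRdim/dim libraries, and *Rsph6a*, with 2 counts in GR+/+ replicate 3 and 0 in the other 5. All 3 are low in lung. A count of 0 in a library allows a level of up to 3 counts, a limit that covers counting error only.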

How the data were processed

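Poly(A)-captured RNA from 6 mouse lungs was sequenced, 1 library per mouse. What the authors deposited are unnormalized counts of reads on each gene, unpooled, beside gene lengths in bases. The submitters' processing notes name mm10 and DESeq2, and the aligner, counting tool, annotation release and use of strand are not given in the sources used here. The table's coordinates matched GENCODE M21 (GRCm38) for 66 of the 72 members. No other column of values was left unused.

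Counts were tested in R 4.3.3 with edgeR 4.0.16 (TMM, filterByExpr, glmQLFit robust, glmQLFTest) and Benjamini-Hochberg adjustment over 16568 genes. Genes were called at an adjusted *p* under 0.05 and a log2 fold change beyond 0.5. CPM use TMM-scaled library sizes, and a prior count of 2 entered log2 values. Alternatives were RLE scaling, no count filter, at least 10 counts in every library, DESeq2 1.42.0, the replicate number as a block, a sex-linked covariate, no fold threshold, each library left out in turn and, added after the data were seen, a gene length correction. Exact permutation tests were two-sided. Where the genotypes do not overlap they always give 0.1, so this value adds nothing to the lack of overlap. The procedure was tested on simulated data. Replicates of a genotype differed by 19.2 to 62.9 per gene in a chi-square test of their counts, where sampling noise gives about 1.

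Genes named were all transcription factors and ruler proteins, in each other role the 2 members with the highest level per length and the one with the smallest p, near-identical paralogs, members not tested, members at an unadjusted *p* under 0.05 whose genotypes do not overlap, and the leading gene of each marker list. Further members with values, among them *Cfap44*, *Cfap97d2*, *Dnah3*, *Dnah8* and *Dnah14*, were chosen after their values were seen. The members and lists were chosen with earlier results of these data known. Shared sequence is the share of a transcript's 31-base windows found in other genes' transcripts.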

Additional observations from a re-analysis of the deposited data

How the results depend on the processing

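All genes called numbered 28 in the reported fit, 522 without a count filter and 274 with DESeq2, and 4 to 22 with 1 library left out. Members called were 0 except without a count filter, where they were 2. Members lower at an unadjusted *p* numbered 7, against 20 without a count filter (4.97% of all genes), 11 with DESeq2 and 0 with the sex-linked covariate, and 0 to 19 with 1 library left out (0 without GR+/+ replicate 3 or GRdim/dim replicate 1). Members higher numbered 0, against 1 with the covariate. The median log2 fold change of members ranged from -0.52 to -0.024 with 1 library left out. The cause was not tested. Replicate numbers share no label of litter or day, and same-numbered libraries deviated together by correlations of 0.22, 0.04 and -0.05, so that they were not treated as pairs. With the number as a block, 34 genes were called in all, 0 members were called and 9 were lower at an unadjusted *p* (5.23% of all genes), with a median of -0.33. Of 58 named genes, 41 kept their direction under every alternative. With the sex-linked covariate the sign changed for *Ccdc39* (0.032), *Cfap126* (0.090), *Dnah7c* (0.29), *Rsph3a* (0.10), *Rsph9* (0.037), *Tekt4* (0.051), *Rfx3* (0.11), *Dnah17* (-0.014), *Cfap43* (0.060), *Tekt2* (0.22) and *Drc3* (0.051). For *Dnah7c* it also changed with the block (0.070) and with the length correction (0.079). Leaving out 1 library at a time changed the sign for *Ccdc39* (-0.42 to 0.12), *Cfap126* (-0.20 to 0.15), *Cfap36* (-0.010 to 0.18), *Dnah7b* (-0.88 to 0.051), *Dnah7c* (-0.36 to 0.58), *Dnah9* (-0.87 to 0.042), *Rsph3a* (-0.16 to 0.19), *Rsph9* (-0.28 to 0.25), *Tekt4* (-0.26 to 0.11), *Rfx3* (-0.25 to 0.23), *Dnah17* (-0.039 to 0.33), *Cfap43* (-0.27 to 0.056), *Cfap97* (-0.014 to 0.29), *Cfap54* (-0.78 to 0.037), *Tekt2* (-0.40 to 0.28), *Drc3* (-0.59 to 0.12) and *Dnaaf2* (-0.35 to 0.14). With 3 mice per genotype, no exact permutation test of a single gene can go under 0.1.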

Other observations

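One row that the symbol rule touched was left out by its biotype. *Dnah2os*, an antisense transcript that overlaps *Dnah2* over 312 exon bases, had 8, 19 and 31 counts in GR+/+ and 62, 27 and 101 counts in GRdim/dim libraries. Its level was 0.478, 1.14 and 0.985 CPM in GR+/+ and 3.34, 1.12 and 6.52 CPM in GRdim/dim libraries. GRdim/dim replicate 2 lay between the GR+/+ libraries and the other GRdim/dim libraries above them all. The log2 fold change was 2.04 (SE 0.61), with an adjusted *p* of 0.314 in edgeR, 0.00214 in edgeR without a count filter and 0.0366 in DESeq2. *Dnah2* itself, at a log2 fold change of -0.66, had the other sign. The gene was singled out after its values were seen, and the use of strand in counting is not known.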
